A study of Homo sapiens with 8 samples.

Results

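Keratins and vimentin are the proteins of the intermediate filaments, and their mRNA was followed here across 4 groups of PNT2 cells. The set was chosen by gene name, with earlier results of these data known. It holds 5 keratins of basal or stratified epithelium (*KRT5*, *KRT14*, *KRT15*, *KRT17*, *KRT6A*), 4 keratins of simple epithelium (*KRT7*, *KRT8*, *KRT18*, *KRT19*) and *VIM*, which makes 10 genes of the 33791 with counts. All 10 passed the filter on low counts that left 14653 genes to test. A keratin filament is built from pairs, each of 1 acidic (type I) and 1 basic (type II) keratin, so the genes of a pair are usually expressed together. *KRT5* and *KRT14* encode the pair of basal epithelial cells, and *KRT8* and *KRT18* that of simple and luminal epithelium. Vimentin, a type III protein, forms its own filaments in mesenchymal cells and in many cultured cells, and in the prostate basal and luminal cells are told apart by these keratins.

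The study asked what loss of *CIC* and *ERF*, which encode neighbouring transcriptional repressors, does to prostate epithelial cells. PNT2 is an immortalized line of human prostate epithelium, grown here in medium with serum. RNA of 2 libraries per group, called replicates A and B, was sequenced from cells labelled WT, *ERF* KD, *CIC* KO and *CIC-ERF* codeletion. By the study's methods *ERF* was knocked down with short hairpin RNAs under puromycin, *CIC* was targeted with guide RNAs under blasticidin, and the codeletion group, in these cells a knockdown of *ERF* plus a knockout of *CIC*, combined 1 of the hairpins with either guide. The labels do not say which hairpin or guide a library carried, whether WT cells carried a vector, or whether a line was grown from 1 clone. Nothing says that replicates came from separate cultures, so every p-value below measures the spread between these libraries, which may be technical.

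The libraries held 19477473 to 25813157 estimated counts, and all 4 groups had replicates that differed by far more than counting noise (chi-square per degree of freedom 21.7 to 43.4). The deposited names of the 4 single-loss libraries carry the other gene's letter, against their labels. *ERF* mRNA went against the labels of the single-loss groups as well. It stood at 55.8 and 55.9 CPM (counts scaled to library size) in WT, 77.8 and 81.2 in the *ERF* KD-labelled libraries, 11.7 and 18.8 in those labelled *CIC* KO, and 10.4 and 11.6 in the codeletion. *CIC* mRNA stood at 128 and 129 CPM in WT, 108.5 and 108.9 in the *ERF* KD-labelled libraries, 131 and 132 in those labelled *CIC* KO, and 66.4 and 90.9 in the codeletion. It was thus lowest in the codeletion and not below WT under the *CIC* KO label, though a guide-made frameshift need not lower it. The study's methods describe a check of its stable lines for both genes by qPCR and western blot, which was not analysed here. The labels were kept, so every direction below belongs to the libraries labelled so and not to a known loss of either gene. Of the defining prostate markers, *TP63*, the basal regulator, was at 0 to 0.577 CPM and *KLK3*, a luminal secretory gene, at 0 in all 8 libraries.

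By the GENCODE release 29 annotation on GRCh38, the type II genes lie together on chromosome 12. These are *KRT7* (chr12:52232520-52252186, plus strand), *KRT6A* (chr12:52487174-52493257, minus strand), *KRT5* (chr12:52514575-52520687, minus strand) and *KRT8* (chr12:52897187-52949954, minus strand). *KRT18* (chr12:52948871-52952901, plus strand) is the type I gene that sits beside them, head to head with its partner *KRT8*. The other type I genes lie on the minus strand of chromosome 17, namely *KRT15* (chr17:41513743-41522529), *KRT19* (chr17:41523617-41528308), *KRT14* (chr17:41582279-41586921) and *KRT17* (chr17:41619441-41624842). *VIM* lies at chr10:17228259-17237593 on the plus strand. *KRT8* and *KRT18* share 525 exonic bases on opposite strands. Reads from these bases cannot be told apart without strand, which is not given in the sources used here.

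RefSeq start regions (GRCh38.p14, 250 bases before and 50 from the start base) were found for 3 of the 10 genes, and they are printed because these genes stand for the 3 classes compared. Capitals mark exact matches to a search of 6 strings. These were TATAAA on the gene's strand, and on both strands CCGGAAGT (a strong ETS site, the kind that ERF binds), TGAATGAA and TGAATGGA (octamers bound by CIC), CAGGTG (an E-box, bound by ZEB and SNAI factors) and GGGCGG (a GC box).
KRT5 (chr12:52520345-52520644, minus strand): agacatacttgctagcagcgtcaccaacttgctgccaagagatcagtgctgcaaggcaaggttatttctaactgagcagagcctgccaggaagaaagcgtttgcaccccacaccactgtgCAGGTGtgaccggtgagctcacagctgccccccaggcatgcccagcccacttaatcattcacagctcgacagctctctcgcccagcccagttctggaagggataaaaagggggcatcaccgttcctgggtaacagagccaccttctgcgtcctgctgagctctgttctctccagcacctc
KRT8 (chr12:52926420-52926719, minus strand): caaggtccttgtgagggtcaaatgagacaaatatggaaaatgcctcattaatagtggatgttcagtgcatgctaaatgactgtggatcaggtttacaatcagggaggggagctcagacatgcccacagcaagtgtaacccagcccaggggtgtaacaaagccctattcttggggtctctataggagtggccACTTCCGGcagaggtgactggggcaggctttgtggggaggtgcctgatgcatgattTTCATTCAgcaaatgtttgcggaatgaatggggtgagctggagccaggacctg
VIM (chr10:17227991-17228290, plus strand): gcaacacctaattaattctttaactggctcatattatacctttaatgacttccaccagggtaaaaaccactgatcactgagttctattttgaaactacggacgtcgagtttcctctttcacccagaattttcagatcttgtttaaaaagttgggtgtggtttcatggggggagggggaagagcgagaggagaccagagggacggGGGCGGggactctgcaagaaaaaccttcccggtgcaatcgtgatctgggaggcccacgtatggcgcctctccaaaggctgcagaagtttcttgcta

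The *KRT5* window held 1 E-box, beginning at base -130 from the start. A CAGGTG is found in 20.6% of the 35116 RefSeq windows of this length. In the *KRT8* window the ETS string was read on the opposite strand at base -59 and the CIC octamer on the opposite strand at base -3, strings that 4.14% and 1.65% of windows hold. The *VIM* window held a GC box at base -46, as do 45% of windows. None of the 3 held TATAAA (7.33% of windows) or TGAATGGA (1.03%), and the ETS core GGAA, left in lower case, is in 95.5% of windows. These matches are a description of letters, and none of the 3 windows has its start base at the first base of the main transcript counted. The main *KRT8* transcript in the files (ENST00000293308) begins 19851 bases downstream of the RefSeq start, the main *VIM* transcript (ENST00000224237) 1037 bases downstream, and the main *KRT5* transcript 293 bases upstream.

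Levels between genes were compared in TPM, an abundance that corrects for transcript length. WT cells expressed the simple keratins most. *KRT8* stood at 1205 and 1375 TPM in WT replicates A and B, *KRT7* at 1249 and 1082, *KRT18* at 1077 and 1125, and *KRT19* at 883 and 1059. Each ranked between place 86 and place 129 among protein-coding genes by TPM, so these 4 were among the abundant mRNAs of the cell. *KRT17*, a type I keratin of basal and activated epithelium, followed at 276 and 424 TPM. *VIM* (93.1 and 173 TPM) and *KRT5* (108 and 138 TPM) had overlapping libraries. *KRT15*, a type I keratin of basal cells, was at 10.4 and 14.3 TPM. *KRT14*, the classical partner of *KRT5*, was at only 1.90 and 1.59 TPM, and *KRT6A*, a keratin of activated epithelium, at 0.407 and 1.22. Of the *KRT14* values, 1.595 and 0.468 TPM came from a retained-intron form. The neighbours in this order whose WT libraries overlapped were *KRT8* with *KRT7*, *KRT7* with *KRT18*, and *VIM* with *KRT5*.

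**Figure D1:**
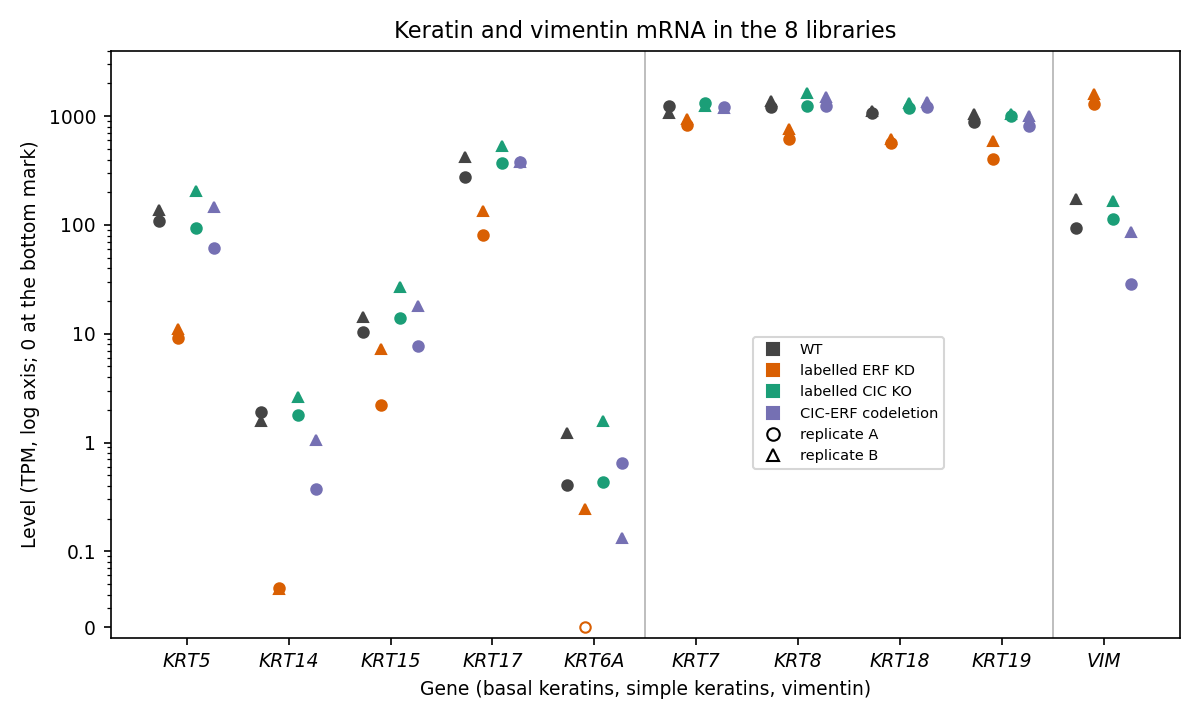
Level of each gene in TPM (log axis, with 0 drawn at the bottom mark) in the 8 libraries, coloured by group, with circles for replicate A and triangles for replicate B. The 4 simple keratins lay between 405 and 1620 TPM in all libraries, while *VIM* moved from 28.8 to 173 TPM in the other groups to 1285 and 1592 TPM in the *ERF* KD-labelled libraries.

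Order and makeup differed in the *ERF* KD-labelled libraries. There *VIM* was the most abundant of the 10 genes (1285 and 1592 TPM, place 82 and place 67 among protein-coding genes), separate from *KRT7* (828 and 948 TPM) below it. WT had it in the sixth place of the 10. In the *CIC* KO-labelled libraries and in the codeletion *KRT8* was at the top by the group mean, as in WT. Its libraries overlapped those of the next gene, *KRT7* under the *CIC* KO label and *KRT18* in the codeletion. In both of these groups *VIM* was in the seventh place by the mean, with libraries that overlapped those of *KRT5*.

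Summed over a class, the basal keratins made up 8.08% and 10.7% of the TPM of the 10 genes in WT replicates A and B, the simple keratins 90.0% and 86.1%, and *VIM* 1.90% and 3.21%. The libraries labelled *ERF* KD had 2.43% and 3.31% basal, 63.7% and 62.6% simple, and 33.9% and 34.1% *VIM*. So the share of *VIM* was larger there than in any other library, and the basal share smaller. In those labelled *CIC* KO the basal share was 9.04% and 12.5% and that of *VIM* 2.11% and 2.72%. The codeletion had 8.98% and 9.60% basal and 0.581% and 1.53% *VIM*, the lowest *VIM* shares of the 4 groups. The sums themselves moved as well. Simple keratins summed to 4414 and 4641 TPM in WT and to 2414 and 2919 in the *ERF* KD-labelled libraries, and basal keratins to 396 and 579 against 92.0 and 154. *KRT17* supplied most of the basal sum, and without it the mean basal share was 2.86% in WT and 0.358% in the *ERF* KD-labelled libraries.

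**Figure D2:**
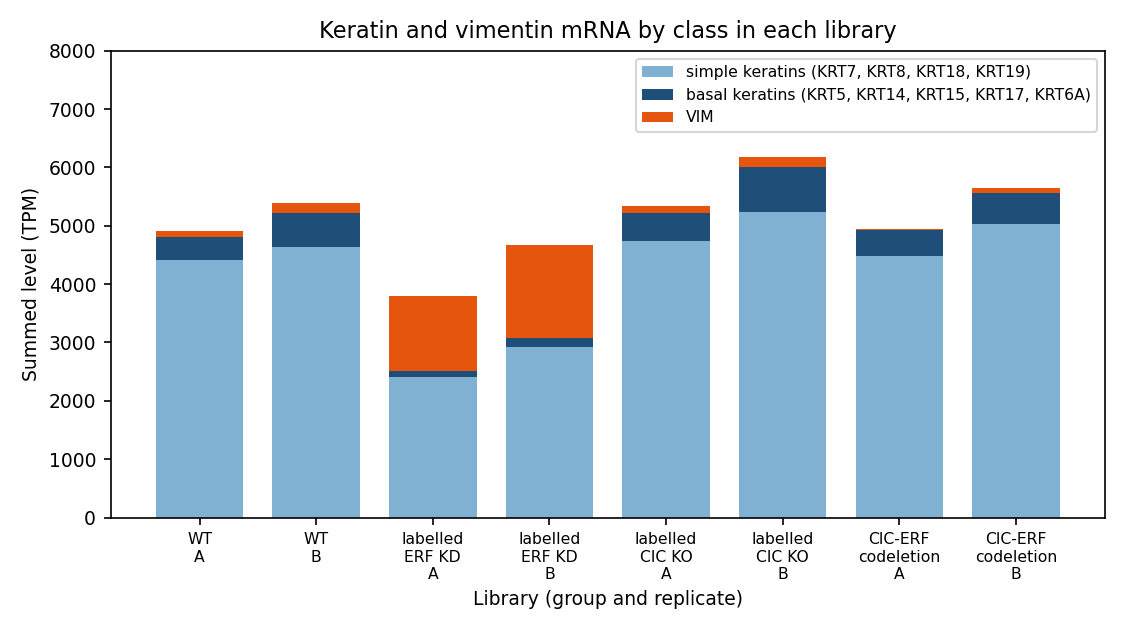
Summed TPM of simple keratins, basal keratins and *VIM* as stacked bars, 1 bar per library. The bars of the 2 libraries labelled *ERF* KD carry 1285 and 1592 TPM of *VIM*, and their keratin parts are the lowest of the 8.

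Setting the *ERF* KD-labelled libraries against WT asked what goes with that label alone. *VIM* rose and 5 of the 9 keratins fell. All 10 genes had an unadjusted p under 0.05. In total 6 of the 10 passed an adjusted p of 0.05 (edgeR's quasi-likelihood test on counts, Benjamini-Hochberg over all 14653 genes), where 10.1% of all genes tested did. By direction, 5 members were lower, beside 6.07% of all genes, and 1 was higher, beside 4.01%. The median log2 fold change was -3.45 over the 5 basal keratins and -0.88 over the 4 simple keratins, against 0.0058 over all genes tested. The largest fall of a simple keratin (-0.94) was smaller than the smallest of a basal keratin (-1.68). In bulk RNA, fewer cells of a type and less RNA per cell cannot be told apart.

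Among the basal keratins, *KRT5*, the type II keratin of the basal layer, was at 139 and 233 CPM in WT and at 15.0 and 19.2 in the *ERF* KD-labelled libraries. The groups were far apart. It fell by 3.45 on the log2 scale (SE 0.590, adjusted p = 0.0086), a 10.9-fold difference. *KRT17* was at 250 and 419 CPM in WT and at 75.5 and 134 in the *ERF* KD-labelled libraries, again without overlap, and fell by 1.68 (SE 0.347, adjusted p = 0.0199). *KRT15* was at 10.3 and 21.5 CPM in WT and 2.50 and 5.07 in the other group. Its log2 fold change of -2.07 (SE 0.625) had an adjusted p of 0.0771, and of 0.0012 once the replicate letters were blocked, in a range of 4.88e-10 to 0.323 over its 15 alternatives.

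The remaining basal keratins rested on few reads. *KRT14* had 18 and 27 counts in WT and 1 in each library labelled *ERF* KD. The ratio was 0.0441 after scaling for depth, with an exact 95% interval for counting error of 0.00519 to 0.169, and the gene passed the test (adjusted p = 0.0091). These counts cover all forms of the gene, and a retained-intron form held 63.2% and 12.3% of them in WT. The coding form had 6.62 and 22.6 estimated counts in WT and 1 in each library labelled *ERF* KD. *KRT6A* had 5 and 38 counts in WT and 0 and 2 in the *ERF* KD-labelled libraries. Its ratio was 0.0462 (0.00542 to 0.177), and its adjusted p was 0.124, or 0.0438 with the replicate block, in a range of 0.000259 to 0.575 over 15 alternatives. *KRT14*, *KRT16* and *KRT17* are near copies of each other, as are *KRT6A*, *KRT6B* and *KRT6C*, so the division of reads within these groups is uncertain. Summed as groups, they gave -1.71 (SE 0.348, adjusted p = 0.0184) for *KRT14*, *KRT16* and *KRT17*. The sum of *KRT6A*, *KRT6B* and *KRT6C* gave -4.58 (SE 1.67, adjusted p = 0.132). *KRT17* held 13498 counts over the WT libraries and *KRT14* 45, so the first sum follows *KRT17* and cannot speak for *KRT14*.

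Both libraries labelled *ERF* KD had less of each simple keratin than either WT library, by smaller folds. *KRT18*, the type I partner of *KRT8*, was at 976 and 1112 CPM in WT and 533 and 608 in the *ERF* KD-labelled libraries, and fell by 0.87 (SE 0.170, adjusted p = 0.0155). *KRT19*, a type I keratin of simple and ductal epithelium, was at 718 and 942 CPM against 344 and 521 and fell by 0.94 (SE 0.240, adjusted p = 0.0444). *KRT19* held the call in 8 of 16 alternatives and *KRT18* in 13 of 16. *KRT8* was at 1319.7 and 1647 CPM in WT and 695 and 912 in the *ERF* KD-labelled libraries. It did not pass (log2 fold change -0.88, SE 0.240, adjusted p = 0.0543), passed with the replicate block (0.00063), and ranged from 4.23e-05 to 0.257 over 16 alternatives. *KRT7*, a type II keratin of ducts and glands, was at 1098 and 1034 CPM against 751 and 855. Its log2 fold change of -0.41 (SE 0.132) was the smallest of the 10, with an adjusted p of 0.0935, or 0.0323 with the replicate block, in a range of 0.0138 to 0.403 over 15 alternatives. Near copies touch this class too, since 50 genes named as *KRT8* pseudogenes held 0.621% to 1.67% of the reads of *KRT8* and its copies, and 67 named for *KRT18* held 0.164% to 0.292%.

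*VIM* moved the other way. It was at 105 and 211 CPM in WT and at 1497 and 1953 in the *ERF* KD-labelled libraries. Both of these libraries were above every other library of the study. *VIM* rose by 3.45 (SE 0.586, adjusted p = 0.0084), a 10.9-fold difference, and 14 of 15 alternatives kept the call. Antisense genes overlap *VIM* by 641 bases (*VIM-AS1*) and 619 bases (*AL133415.1*) and were not analysed here.

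Both libraries labelled *ERF* KD lay below the 6 other libraries for 9 of 9 keratins, an arrangement that 14.3% of all genes tested had, and above them for *VIM*, as 13.8% of genes were. Which keratins passed the test depended on the libraries. The count of members called fell from 6 to 1 without replicate A labelled *ERF* KD (*VIM*), to 3 without WT replicate A (*KRT5*, *KRT14*, *KRT17*) and to 2 without WT replicate B (*KRT5*, *VIM*). With the replicate letter as a block all 10 were called, where the block called 18.2% of all genes. Of the members 9 were lower, beside 9.83% of genes, and 1 was higher, beside 8.39%. Fibroblast markers are given because *VIM* is a gene of such cells too. The 9 listed summed to 32.5 and 50.1 CPM in WT at the lowest and highest library, and to 43.7 and 116 in the *ERF* KD-labelled libraries. The sums were 24.0 and 46.5 CPM in the *CIC* KO-labelled libraries and 43.2 and 65.6 in the codeletion. *COL1A1* and *PDGFRB*, the most abundant of the list under the *ERF* KD label, stood there at 65.5 and 36.4 CPM in replicate A and at 30.7 and 6.90 in replicate B. Of the 9, 6 were tested, and each had a log2 fold change above 0, from 0.21 (*COL6A3*) and 0.61 (*COL1A1*) through 1.302 (*PDGFRA*), 1.58 (*PDGFRB*) and 2.75 (*COL1A2*) to 3.55 (*COL3A1*). *COL3A1*, a fibrillar collagen, was the 1 that passed the test, beside 4.01% of all genes higher. It rose from 0.427 and 0.561 CPM to 9.89 and 1.79 (adjusted p = 0.0432). The 3 not tested were too low, with *LUM* at 0 in all 8 libraries, *DCN* at 0 to 0.475 CPM and *THY1* at 0 to 0.528 CPM. Their part in the result was not tested.

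**Figure D3:**
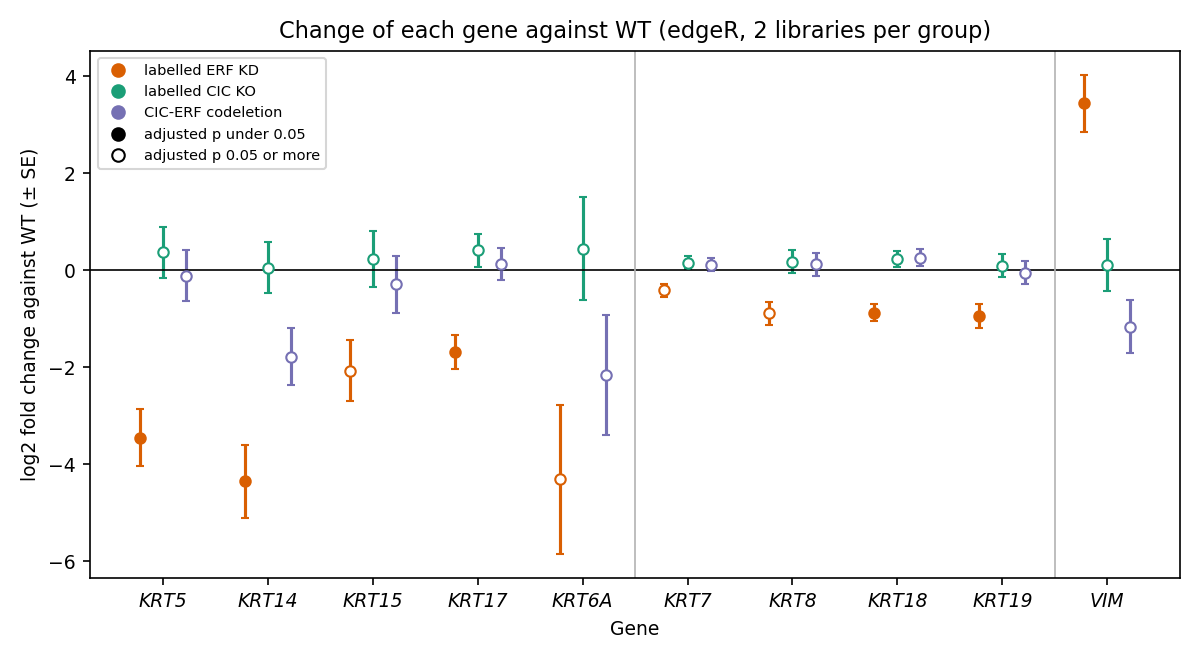
Log2 fold change of each gene against WT with its SE (edgeR, 2 libraries per group) for the *ERF* KD-labelled libraries, those labelled *CIC* KO and the codeletion, filled where the adjusted p was under 0.05. In the *ERF* KD-labelled libraries the keratins lie at -4.35 to -0.41 and *VIM* at 3.45, and no filled point belongs to the other groups.

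Ratios between keratins did not shift alike. The ratio of *KRT8* to *KRT18* in TPM was 1.12 and 1.22 in WT, 1.09 and 1.25 in the *ERF* KD-labelled libraries, and between 1.01 and 1.21 in the other 4 libraries. This pair thus stayed near the same proportion in all groups. Among the simple keratins, *KRT7* to *KRT19* was 1.41 and 1.02 in WT and 2.05 and 1.60 in the *ERF* KD-labelled libraries. It was between 1.18 and 1.48 in the other 4 libraries. For *KRT5* to *KRT8*, both type II, the ratio was 0.0896 and 0.1003 in WT, and 0.0148 and 0.0144 in the *ERF* KD-labelled libraries. In the other 4 libraries it was between 0.0492 and 0.127. That of *KRT5* to *KRT17* was 0.392 and 0.325 in WT, 0.113 and 0.0810 in the *ERF* KD-labelled libraries, and between 0.162 and 0.391 in the other 4. Type II keratins summed to 1.14 and 0.989 times the type I keratins in WT, and to 1.38 and 1.28 times in the *ERF* KD-labelled libraries, where the groups did not overlap. *VIM* stood at 0.0772 and 0.126 times *KRT8* in WT and at 2.08 times *KRT8* in both libraries labelled *ERF* KD. These ratios are a description and were not tested.

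No difference of the 10 genes from WT passed the test in the *CIC* KO-labelled libraries. *KRT5* was at 141 and 343 CPM, *KRT17* at 347 and 547 CPM, and *VIM* at 131 and 212 CPM. Each of these ranges overlapped that of WT. By edgeR 0 of the 10 genes were called, as were 0.0% of all genes tested, and 0 had an unadjusted p under 0.05. DESeq2 called 0, and limma called 0. Log2 fold changes ran from 0.06 (*KRT14*) to 0.45 (*KRT6A*), with a median of 0.21 against 0.012 over all genes. The SE of *VIM* (0.534) and of *KRT5* (0.529) was large, so that even a change well above that size would not have been called. *ERF* itself differed from WT by -1.87 here (SE 0.211) and had an edgeR adjusted p of 0.248. *KRT7* (1194 and 1191 CPM) was the only member whose libraries did not overlap WT, and 16.1% of genes tested were higher in this way. Its log2 fold change was 0.16 (SE 0.131).

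In the codeletion, too, 0 of 10 genes were called against WT by edgeR, beside 0.0682% of all genes. DESeq2 and limma called 0, and 1 gene (*KRT14*) had an unadjusted p under 0.05. *KRT14* had 6 and 7 counts against 18 and 27 in WT, a ratio of 0.284 (exact 95% interval for counting error 0.141 to 0.536), with an adjusted p of 0.263. *VIM* was at 32.4 and 109 CPM against 105 and 211 in WT. Its libraries overlapped by a narrow margin, and its log2 fold change was -1.16 (SE 0.543, adjusted p = 0.401). The replicate block gave *VIM* an adjusted p of 0.0513, in a range of 2.71e-06 to 0.813 over 15 alternatives of which 1 called it. *KRT5* was at 90.7 and 256 CPM, 1 library below and 1 above both of WT. *KRT8* was at 1390.4 and 1841 CPM, with replicate A inside the WT range and replicate B above it. The 4 simple keratins had a median log2 fold change of 0.12 and the 5 basal keratins one of -0.28, against 0.0018 over all genes.

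Set against the *ERF* KD-labelled libraries, the codeletion had more keratin mRNA and less *VIM*. This comparison asked what separates loss of both genes from the label *ERF* KD. It called 7 of the 10 genes, beside 11.7% of all genes tested. Of these, 6 keratins were higher (*KRT5*, *KRT17*, *KRT7*, *KRT8*, *KRT18*, *KRT19*), beside 6.04% of genes higher, and *VIM* was lower, beside 5.62%. *KRT5* rose by 3.34 (SE 0.588, adjusted p = 0.0090), *KRT17* by 1.81 (SE 0.349, adjusted p = 0.0134) and *KRT18* by 1.14 (SE 0.171, adjusted p = 0.0047). *VIM* fell by 4.61 (SE 0.619, adjusted p = 0.0027), a 24.4-fold difference and the largest of any member that passed the test in the 6 comparisons. All 15 alternatives kept that call of *VIM* and all 16 that of *KRT18*, while 5 of 15 kept that of *KRT7* and 7 of 16 that of *KRT19*. *KRT14* (adjusted p = 0.0844), *KRT15* (0.107) and *KRT6A* (0.496) did not pass. With the replicate block *KRT15* did (adjusted p = 0.0031, in a range of 1.02e-07 to 0.549 over 15 alternatives), and the block called 20.6% of all genes, 10.6% as higher and 9.99% as lower. The count was 2 without replicate A labelled *ERF* KD, and 3 without either codeletion library.

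Against the *CIC* KO-labelled libraries, the codeletion had 0 of 10 genes called by edgeR, beside 0.0% of all genes, and DESeq2 and limma called 0. An unadjusted p under 0.05 was found for *KRT14* (log2 fold change -1.84, SE 0.585) and *VIM* (-1.28, SE 0.545). *VIM* was at 131 and 212 CPM in the *CIC* KO-labelled libraries, above both codeletion libraries, and its adjusted p was 0.589. *KRT14* had 20.1 and 29.1 counts there against 6 and 7, with an adjusted p of 0.466.

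The libraries labelled *ERF* KD were also set against those labelled *CIC* KO, a comparison that shares the former with the one against WT. Of the 10 genes 8 were called, beside 9.40% of all genes tested. These were 7 keratins that were lower in the *ERF* KD-labelled libraries, beside 5.65% of genes, and *VIM*, which was higher, beside 3.75%. *KRT15* (adjusted p = 0.0583) and *KRT6A* (0.0978) did not pass, and did with the replicate block (0.00058 in a range of 4.03e-12 to 0.231, and 0.0286 in a range of 3.18e-05 to 0.363). The block called 16.5% of all genes here, 7.56% as higher and 8.98% as lower. *KRT5* fell by 3.82 (SE 0.599, adjusted p = 0.0059), *KRT8* by 1.06 (SE 0.241, adjusted p = 0.0288) and *KRT7* by 0.57 (SE 0.132, adjusted p = 0.0315), while *VIM* rose by 3.33 (SE 0.582, adjusted p = 0.0095). Since *ERF* mRNA in these libraries went against their labels, the direction belongs to the labels only. The count was 4 without replicate A labelled *ERF* KD and 5 without either library labelled *CIC* KO.

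An interaction term tested whether both single changes, added on the log2 scale, gave the value of the codeletion. Exchanging the labels of the single-loss groups leaves this term as it is. *VIM* was the only member that passed, beside 4.15% of all genes tested (2.67% higher, 1.48% lower), with a term of -4.73 on the log2 scale (SE 0.794, adjusted p = 0.0157). Without WT replicate A the adjusted p of *VIM* was 0.0554, the highest in a range that began at 1.78e-41, and 13 of its 14 alternatives kept the call. For the 9 keratins the terms were positive, from 0.37 (*KRT7*) to 2.97 (*KRT5*, SE 0.772, adjusted p = 0.0821), with a median of 1.39 against -0.0042 over all genes. The replicate block called 7 members, beside 9.55% of genes, namely *KRT5*, *KRT15*, *KRT17*, *KRT8*, *KRT18* and *KRT19* as higher, beside 5.32%, and *VIM* as lower, beside 4.23%.

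At the level of transcripts, which kallisto estimates by dividing shared reads, most genes were carried by 1 form. ENST00000224237 held 97.0% to 98.8% of the *VIM* counts and ENST00000293308 93.1% to 95.1% of those of *KRT8*, so their changes were changes of these forms. *KRT18* had 2 main forms, ENST00000388835 and ENST00000388837, whose first bases lie at 52948964 and 52948871 of chromosome 12. ENST00000388837 held 40.2% and 37.9% of the counts in WT, 31.9% and 30.8% in the *ERF* KD-labelled libraries and 31.2% to 34.8% in the other 4. The forms of *KRT15* also differed between groups. ENST00000254043, the form that starts farther upstream, had 72.9 and 83.3 estimated counts in WT and 4.27 and 4.16 in the *ERF* KD-labelled libraries. ENST00000393976 had 95.5 and 270.3 in WT and 34.4 and 61.0 in the *ERF* KD-labelled libraries. ENST00000254043 also had fewer counts in the codeletion (30.6 and 30.0) than in WT, and had 81.0 and 50.1 in the *CIC* KO-labelled libraries. Its share of the *KRT15* counts already differed between the WT replicates (33.8% and 19.8%). *KRT14* and *KRT6A* were split with retained-intron forms. ENST00000476662 held 47.8% and 51.2% of the *KRT14* counts under the *CIC* KO label, and 25.9% and 100% in the codeletion. ENST00000549898 held 22.3% and 0% of the *KRT6A* counts in WT, and 80.6% and 9.19% in the codeletion. These are estimates on few reads, with no test.

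The wider family and its partners were read from lists of named genes, in the same test. These lists were chosen with earlier results of these data known, so their counts beside the shares of all genes are a description and no independent support. Between WT and the *ERF* KD-labelled libraries, other keratins were mostly too low to test. Of 22 other type II keratins 4 were tested and 1 was lower, beside 6.07% of all genes. It was *KRT81*, a hair keratin (34.3 and 46.7 CPM in WT against 3.03 and 2.73, log2 fold change -3.81, SE 0.219). *KRT81* was also below both WT libraries, without a call, at 20.6 and 24.2 CPM under the *CIC* KO label and at 20.4 and 19.6 in the codeletion. Of 23 other type I keratins 4 were tested and 1 was lower, again beside 6.07% of all genes. It was *KRT16*, a keratin of activated epithelium (8.83 and 14.5 CPM against 0.817 and 1.54, log2 fold change -3.31, SE 0.447). In the *CIC* KO-labelled libraries and in the codeletion the libraries of *KRT16* overlapped those of WT. Of the other 14 intermediate filament genes 7 were tested and 1 was higher, beside 4.01% of all genes. It was *NES*, which encodes nestin, a partner of vimentin in filaments (1.80 and 2.29 CPM against 8.12 and 7.25, log2 fold change 1.91, SE 0.407). *NES* was also above both WT libraries, without a call, at 4.74 and 3.03 CPM under the *CIC* KO label and at 5.84 and 2.93 in the codeletion. The lamins, filaments of the nucleus, were tested and not called.

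Linker proteins tie these filaments to junctions and to the rest of the cytoskeleton. All 11 listed were tested, 5 were lower and 0 higher in the *ERF* KD-labelled libraries, beside 6.07% and 4.01% of all genes, with a median log2 fold change of -0.69 against 0.0058 over all genes. *EPPK1*, which encodes epiplakin, a binder of keratin filaments, had a value of -3.29 (SE 0.225). *DSP* (desmoplakin, which anchors keratins at desmosomes) went from 610.5 and 603 CPM to 131 and 148 (log2 fold change -2.12, SE 0.152), and *JUP* (plakoglobin) had -2.06 (SE 0.239) and *PKP3* (plakophilin) -1.52 (SE 0.187). *PLEC*, which encodes plectin, a linker of both keratin and vimentin filaments, was at 623 and 605 CPM against 476 and 602 and was not called.

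Transcription factors of epithelium and mesenchyme moved in the same comparison. Of 14 epithelial factors listed 13 were tested, 8 were lower and 0 higher, beside 6.07% and 4.01% of all genes, with a median of -1.43. *GRHL2*, a regulator of epithelial genes, went from 178 and 167 CPM to 14.1 and 17.6 (log2 fold change -3.44, SE 0.153). *OVOL1* (-4.29, SE 0.481), *OVOL2* (-4.26, SE 0.245), repressors of mesenchymal genes, and *EHF*, an epithelial ETS factor (-3.96, SE 0.600), were also lower. Of 7 mesenchymal factors 6 were tested, 3 were higher and 0 lower, beside 4.01% and 6.07% of all genes. *ZEB2* went from 3.47 and 4.79 CPM to 40.1 and 38.2 (3.24, SE 0.232), *ZEB1* from 6.08 and 7.04 to 41.1 and 49.0 (2.78, SE 0.195) and *TWIST1* from 7.93 and 7.95 to 20.2 and 17.1 (1.23, SE 0.285). The 3 that did not pass included *SNAI2*, the most abundant of the list in WT, which was at 74.3 and 77.0 CPM there and at 16.7 and 52.2 in the *ERF* KD-labelled libraries (-1.14, SE 0.452, adjusted p = 0.162). The others were *SNAI1* (-0.50, SE 0.524) and *TWIST2* (0.98, SE 0.304). In the *CIC* KO-labelled libraries and in the codeletion, 0 genes of these 6 lists were called against WT by edgeR, beside 0.0% and 0.0682% of all genes. Against the *ERF* KD-labelled libraries, the codeletion had 5 of 11 linkers and 7 of 13 epithelial factors higher and 2 of 6 mesenchymal factors lower, beside 6.04% of all genes higher and 5.62% lower.

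**Figure D4:**
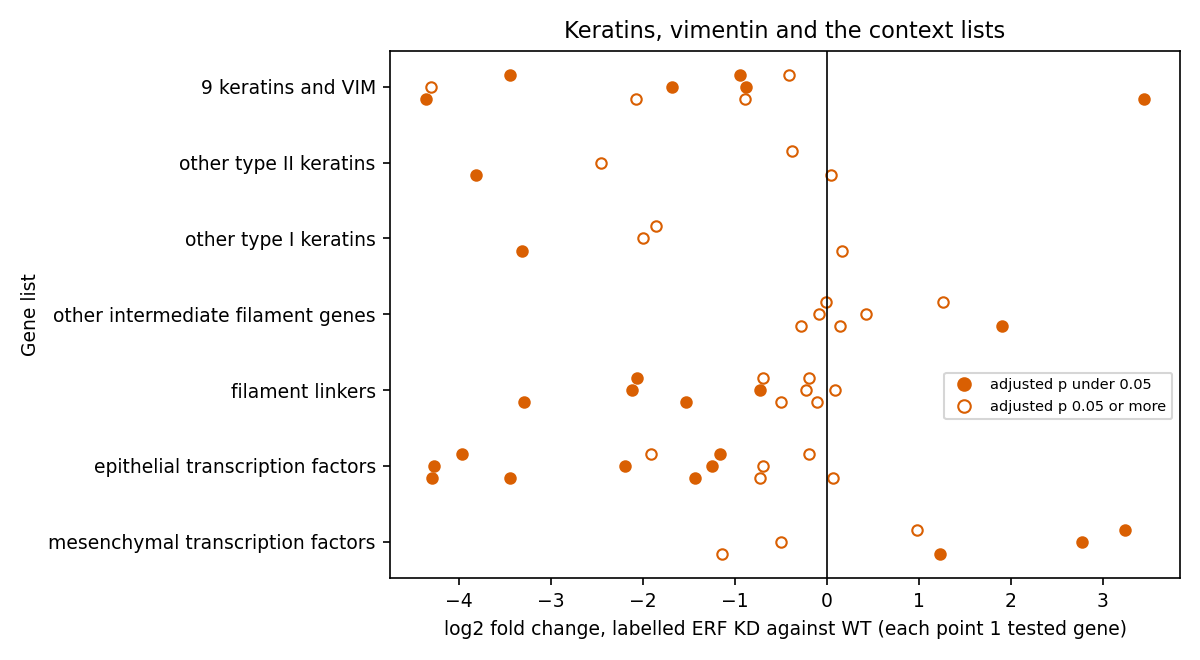
Log2 fold change in the *ERF* KD-labelled libraries against WT for the keratins and *VIM* and for the tested genes of each list, 1 point per gene, filled where the adjusted p was under 0.05. Called keratins, linkers and epithelial factors lie below 0, while *VIM*, *NES* and 3 mesenchymal factors lie above it.

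Genes with the most similar pattern over the 8 libraries were found by the root mean square difference of centred log2 CPM among 13832 protein-coding genes. For *KRT5* these were *DAPP1* (0.270), *MACC1* (0.299) and the keratin *KRT16* (0.332), where *KRT5* itself varied by 1.58 on this measure. *KRT8* was nearest to its partner *KRT18* (0.106), then *USP53* (0.113) and *TNIP1* (0.119), against a spread of 0.478 of its own. The genes nearest to *VIM* were *SPP1* (0.365), *CNRIP1* (0.501) and *TMEM200A* (0.529), against 1.87. *SPP1*, which encodes osteopontin, was at 0.617 and 1.22 CPM in WT and 8.89 and 19.8 in the *ERF* KD-labelled libraries.

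Replicates A and B also differed in an ordered way. Replicate B had the higher CPM in 4 of 4 groups for 8 of the 10 members (*KRT5*, *KRT14*, *KRT15*, *KRT17*, *KRT8*, *KRT18*, *KRT19* and *VIM*), as did 15.3% of all genes tested. For *KRT5* replicate B was 1.28 to 2.83 times replicate A, and for *VIM* 1.304 to 3.37 times, so both moved in the same direction between replicates while they moved in opposite directions between the *ERF* KD-labelled libraries and WT. *KRT7* was higher in replicate B in 2 of 4 groups, and *KRT6A* in 3. What the letters stand for is not given in the sources used here.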

How the data were processed

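The authors deposited, for each of 8 libraries, estimated counts per transcript (not normalized) and TPM, which corrects for effective transcript length and has the same total in each library, in the column layout of kallisto. Their methods name RSEM, and the submitters' processing notes name hg19. The kallisto version, transcript annotation and strandedness are not given in the sources used here. Of 180253 transcripts 85.0% matched GENCODE release 29 by identifier. Estimated counts were summed per gene and rounded, and between 93.2% and 93.3% of a library's counts lay on genes. Groups follow the labels, though the 4 single-loss files have names with the other gene's letter. After filterByExpr and TMM, 1 edgeR 4.0.16 fit (R 4.3.3) held the 4 groups. CPM values are TMM-scaled. SE is the size of the log2 fold change over the square root of F. The script was tested on simulated data. Intervals and floors (3 counts) cover counting error only.

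Members and lists were chosen with earlier results of these data known. Beside the members, the text names from each list up to 4 genes with the largest change between WT and the *ERF* KD-labelled libraries among those called there with a mean of at least 1 CPM, or else the 2 most abundant, and the 3 nearest genes to *KRT5*, *KRT8* and *VIM*. *PLEC*, *SNAI1*, *SNAI2*, *TWIST2* and the fibroblast markers were named after their values were seen. Differences between replicates A and B correlated between every pair of groups (0.136 to 0.335 over genes), so the letters were taken to pair libraries and a replicate block was the paired alternative. Other alternatives used DESeq2 1.42.0, limma 3.58.1 on log2(TPM + 1) and log2(TPM + 0.1), no filter, length-scaled counts, summed near copies, only the groups compared, and each library left out.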

Additional observations from a re-analysis of the deposited data

Results flagged for a closer look

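The change of *VIM* between WT and the *ERF* KD-labelled libraries differed from its change between those labelled *CIC* KO and the codeletion. It stands here because this difference was itself tested, by the interaction term of edgeR, which was -4.729 on the log2 scale (adjusted p = 0.0157, and 0.0554 without WT replicate A). *VIM* was higher in both libraries labelled *ERF* KD (1497 and 1953 CPM) than in both WT libraries (105 and 211), and lower in both codeletion libraries (32.4 and 109) than in both labelled *CIC* KO (131 and 212).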

How the results depend on the processing

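Of 1069 alternative fold changes of the 10 genes, 919 kept their direction and side of the threshold, 51 gained the call, 67 lost it and 32, none of them called, changed sign. The cause was not tested. Leaving out a library leaves its group with 1, which is then assumed to vary like the other groups. *ERF* KD against WT called 6 members, 10 by DESeq2, 10 with the replicate block, and 1 to 6 with a library left out. With a library left out the count was 2 to 6 for the codeletion against *ERF* KD, 4 to 9 for *ERF* KD against *CIC* KO and 0 to 1 for the interaction. The interaction called 4 by DESeq2, 7 without a filter, 7 with the replicate block, and 2 by limma with either pseudocount. Without a filter, 1 member was called in the codeletion against WT and 2 against *CIC* KO. The replicate block moved no other count of calls by over 1.5 times.

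Without *KRT17* the mean basal share was 2.864% in WT, 0.3581% in *ERF* KD, 3.193% in *CIC* KO and 2.335% in the codeletion, and the *VIM* share in *ERF* KD 34.88%. In CPM the *VIM* share was 38.63% in *ERF* KD and 2.878% in *CIC* KO, and the basal share of the codeletion 10.05%. With length-scaled counts *KRT15* in the codeletion against WT had a log2 fold change of 0.136.

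With a library left out, values that changed sign ran as follows on the log2 scale. In *CIC* KO against WT the range was -0.4068 to 0.8793 for *KRT5*, -0.2606 to 0.4415 for *KRT14*, -0.2047 to 0.8638 for *KRT15*, -1.36 to 2.614 for *KRT6A*, -0.1061 to 0.4168 for *KRT8*, -0.08819 to 0.3071 for *KRT19* and -0.3009 to 0.711 for *VIM*. In the codeletion against WT the range was -1.037 to 0.4561 for *KRT5*, -1.375 to 0.3504 for *KRT15*, -0.193 to 0.5555 for *KRT17*, -2.997 to 0.0009443 for *KRT6A*, -0.09036 to 0.3082 for *KRT8* and -0.2582 to 0.1696 for *KRT19*. In the codeletion against *CIC* KO the range was -1.414 to 0.3047 for *KRT5*, -1.611 to 0.1112 for *KRT15*, -0.5762 to 0.08407 for *KRT17*, -0.2949 to 0.2324 for *KRT8*, -0.1161 to 0.1951 for *KRT18* and -0.356 to 0.05154 for *KRT19*. In the interaction the range was -0.4692 to 4.885 for *KRT6A*.

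At 2 libraries per group the SE of *VIM* and *KRT5* was over 0.5 on the log2 scale, and *KRT14* and *KRT6A* rested on 0 to 53 counts per library, so smaller differences were not detectable.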
